A study of Mus musculus with 6 samples.

Results

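The genes of cholesterol and fatty acid synthesis were examined in microvessel RNA from the brains of TEKCRIF1 KO and WT mice. The list holds 29 of the 23183 gene symbols measured. Its members were named by gene symbol, with no threshold on the measured values. The genes were placed in 5 branches, with 7 genes of the early mevalonate and isoprenoid steps, 3 of the steps from squalene to lanosterol, 8 of the steps from lanosterol to cholesterol, 6 of sterol sensing and transport, and 5 of fatty acid synthesis. The KO mice carried TEK-cre and *Crif1* flox/flox, and the WT mice carried the same TEK-cre with *Crif1* +/+, so all 6 mice had the Cre transgene. The strain was given as C57BL/6, and age was not given in the sources used here. *Crif1* (*Gadd45gip1*) encodes a protein of the mitochondrial ribosome that is needed to make the membrane subunits of the respiratory chain. Cre was driven by Tek, a receptor gene of endothelial cells, whereas the RNA came from all cells left in the microvessel preparation. There were 3 mice in each group, with 1 library for each mouse.

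Cells make cholesterol from acetyl-CoA through mevalonate, farnesyl diphosphate, squalene and lanosterol, and they make fatty acids from acetyl-CoA through malonyl-CoA. Both pathways are controlled at transcription by the SREBP factors, which SCAP carries out of the endoplasmic reticulum when sterols are low and which INSIG proteins hold back when sterols are high. The adult brain makes its own cholesterol, because lipoproteins of the plasma do not pass the blood-brain barrier, and astrocytes and oligodendrocytes are known as its main producers.

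SREBP factors bind sterol regulatory elements, commonly beside a box for the factor NF-Y. Promoters of 300 bases, from 250 bases before the annotated start to 50 from the start on, were read from RefSeq (GRCm38.p6), and 23 of the 29 genes had 1 or more of them, 31 in all. *Fdps*, *Fdft1*, *Sqle*, *Stard4*, *Scd1* and *Scd2* had none in that table. The NF-Y box, CCAAT on either strand, was found in 19 of the 23 genes (82.6%) and in 11096 of the 27025 genes with a promoter in the table (41.1%). The sterol regulatory element was searched as TCACNCCAC on either strand. These letters were found in 1 of the 23 genes (4.3%), *Hmgcs1*, and in 388 of all 27025 genes (1.44%). Other spellings of the element were not searched, so a gene without a match may still hold one. A gene with several starts was counted once if any of its promoters held the motif, and a match of letters is a description and not a binding site.

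Of the 42 NF-Y boxes in these promoters, 39 lay before the start and 26 of them within 100 bases of it. The 200 bases before the start are shown for *Hmgcs1*, *Mvk*, *Msmo1* and *Fasn*. *Hmgcs1* held the only match to TCACNCCAC, and *Mvk* held the most boxes. *Msmo1* and *Fasn* are examples of genes whose levels did not overlap between WT and KO mice. *Scap*, another such gene, had no NF-Y box in either of its 2 promoters. Capitals mark CCAAT, its reverse complement ATTGG and, in *Hmgcs1*, the element TCACCCCAC, and each sequence runs 5′ to 3′ on the strand of its gene.
Hmgcs1: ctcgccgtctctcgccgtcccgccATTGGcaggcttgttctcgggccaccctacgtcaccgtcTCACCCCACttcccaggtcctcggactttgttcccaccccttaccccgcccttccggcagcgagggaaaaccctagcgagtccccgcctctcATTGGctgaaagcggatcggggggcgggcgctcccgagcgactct
Mvk: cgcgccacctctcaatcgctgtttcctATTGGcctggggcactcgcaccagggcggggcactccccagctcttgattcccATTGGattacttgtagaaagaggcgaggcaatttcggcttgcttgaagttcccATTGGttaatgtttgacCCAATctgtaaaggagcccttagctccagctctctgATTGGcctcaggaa
Msmo1: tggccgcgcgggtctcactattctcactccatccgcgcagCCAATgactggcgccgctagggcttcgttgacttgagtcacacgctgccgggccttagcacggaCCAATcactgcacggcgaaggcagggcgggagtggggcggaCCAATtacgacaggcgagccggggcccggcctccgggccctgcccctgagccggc
Fasn: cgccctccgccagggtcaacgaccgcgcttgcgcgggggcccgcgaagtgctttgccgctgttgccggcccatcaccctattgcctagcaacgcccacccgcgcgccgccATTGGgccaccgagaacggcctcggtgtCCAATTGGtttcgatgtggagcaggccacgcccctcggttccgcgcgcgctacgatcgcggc
These windows lie at chr13:119690151-119690350 on the plus strand for *Hmgcs1*, chr5:114444069-114444268 on the plus strand for *Mvk*, chr8:64733579-64733778 on the minus strand for *Msmo1* and chr11:120824548-120824747 on the minus strand for *Fasn*. *Hmgcs1* had 4 boxes in its whole promoter, of which 2 lie outside the 200 bases shown, and its sterol regulatory element began 137 bases before the start. *Mvk* had 5 boxes, all shown. *Msmo1* and *Fasn* had 3 each, and in *Fasn* a pair of them overlapped on opposite strands.

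**Figure D1:**
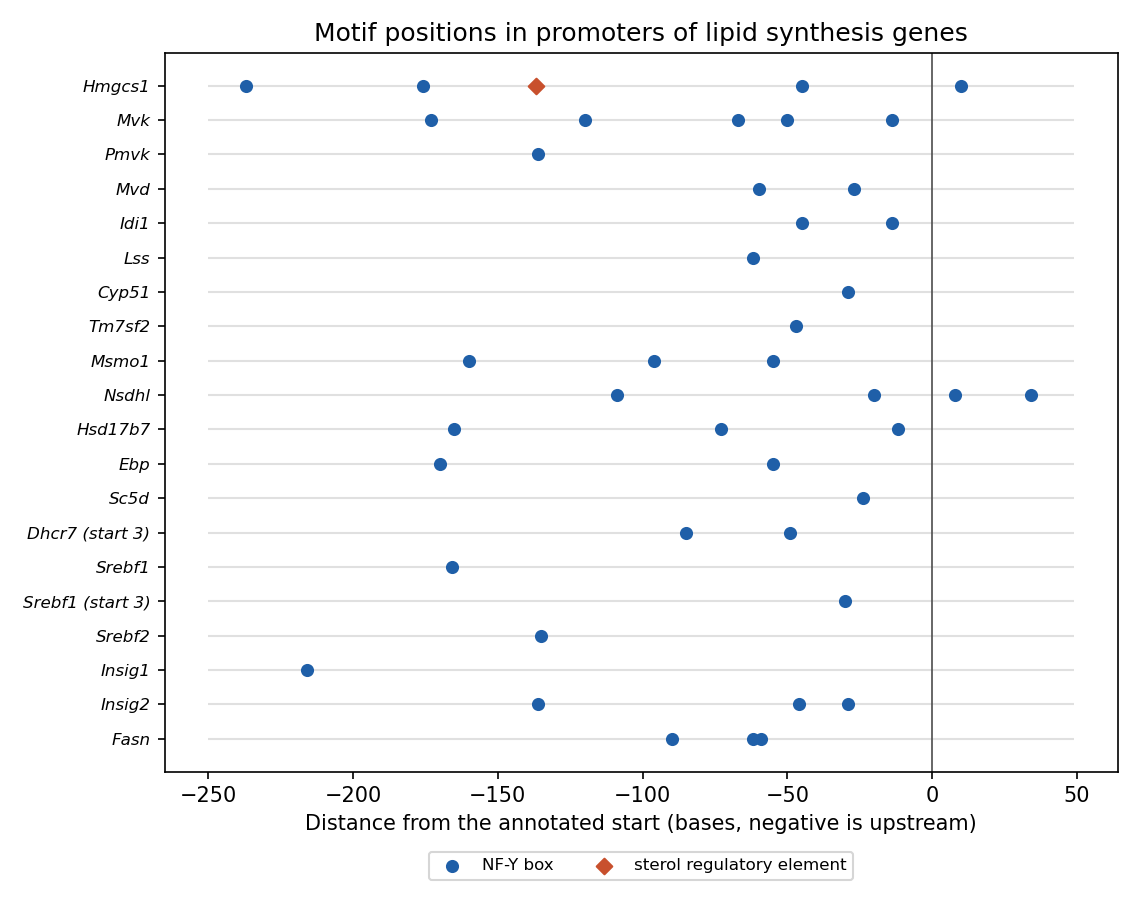
The horizontal axis gives the distance in bases of the first base of each motif from the annotated start, and each line is a promoter of 300 bases that held at least 1 motif. Circles are NF-Y boxes and the diamond is the sterol regulatory element of Hmgcs1, and 39 of the 42 boxes lie left of the start.

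In WT mice all 29 genes were expressed, from 2.21 ± 0.233 FPKM (SD, n = 3) for *Hsd17b7*, a reductase of the late sterol steps, to 139 ± 9.28 FPKM for *Scd2*, a stearoyl-CoA desaturase, a 62.7-fold span. FPKM is the number of fragments per kilobase of transcript, scaled to the mapped reads of a library, so levels can be compared between genes per length. After *Scd2* came *Hmgcs1*, the HMG-CoA synthase, at 47.3 ± 7.14 FPKM. *Fdps*, which makes farnesyl diphosphate, followed at 34.8 ± 1.87 FPKM. The sterol factor *Srebf2* was at 33.2 ± 3.1 FPKM and its escort *Scap* at 31.1 ± 0.22 FPKM. These 5 genes were above 30 FPKM and 6 genes were below 10 FPKM. Of the 28 pairs of neighbours in the order of WT means, 23 overlapped in their 3 WT values. The 5 pairs that did not were *Scd2* and *Hmgcs1*, *Hmgcs1* and *Fdps*, *Scap* and *Msmo1*, *Idi1* and *Nsdhl*, and *Stard4* and *Lss*. The rank of most genes in the middle of this order was therefore not fixed by 3 mice.

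**Figure D2:**
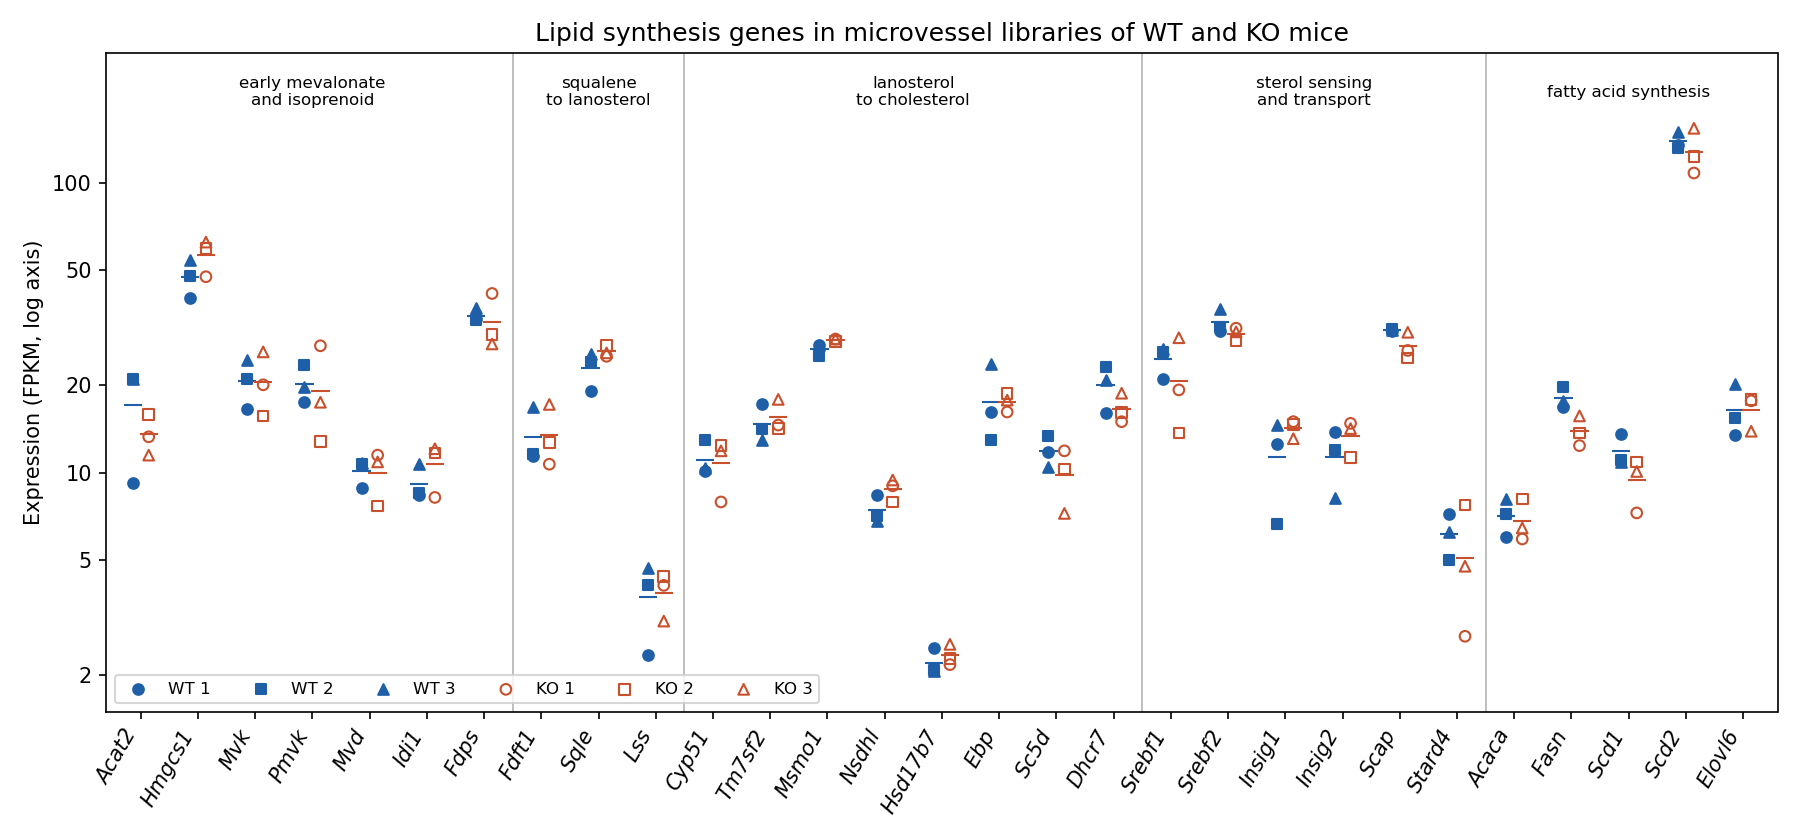
Expression of each gene in FPKM on a log axis, with filled blue symbols for the 3 WT libraries, open orange symbols for the 3 KO libraries and a bar at each group mean; vertical lines separate the 5 branches. Scd2 stands highest and Hsd17b7 lowest, and in 25 of the 29 genes the symbols of the groups overlap.

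*Gadd45gip1*, the deleted gene, was at 18.8, 15.3 and 16.5 FPKM in WT 1, 2 and 3 and at 10.8, 7.54 and 10.4 FPKM in KO 1, 2 and 3, so every KO library was below every WT library (log2 difference −0.77, SE 0.22, limma unadjusted p = 0.00534 and adjusted p = 0.841). Estimated depth was 6400000 to 11700000 fragments a library, and the smallest number of fragments estimated for any of the 29 genes was 67.6, for *Hsd17b7*, which gives a counting error of 12.2%. Correlations of log2(FPKM + 1) across the genes tested were 0.938 to 0.945 between WT libraries and 0.902 to 0.932 between KO libraries. Each of the 6 endothelial markers was detected in each library, with a summed level of 712 to 986 FPKM in WT and 638 to 841 FPKM in KO mice, and RNA of pericytes, smooth muscle, astrocytes, oligodendrocytes, microglia, neurons and fibroblasts was also present. No defining marker was at 0 in any library.

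KO mice were compared with WT mice to ask whether loss of *Crif1* in endothelial cells goes with other levels of lipid synthesis genes. None of the 29 genes passed the test. With limma on log2(FPKM + 1), 0 of 29 had an adjusted p under 0.05 and 0 of 29 had an unadjusted p under 0.05, where 838 of the 14247 genes tested (5.88%) had the latter and 0 the former. The lowest adjusted p among the 29 was 0.841, for *Fasn*. All 29 passed the filter of a mean of 1 FPKM. On the log2 scale 16 were lower in KO mice (55.2%) and 13 higher, against 7240 genes lower (50.8%) among all tested. Their median difference was −0.02 and their range was −0.36 to 0.37, with a median over all genes of −0.00618.

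The 29 genes also differed little in size between the groups. The median absolute log2 difference was 0.13, against 0.21 over all genes tested, with median standard errors of 0.23 and 0.27. A difference of 1.2-fold or more was seen in 6 of the 29 (20.7%) and in 5743 of all genes (40.3%). No member differed by 1.5-fold, against 1379 genes (9.68%) of all. The 95% limma interval of a member reached 0.40 to 0.73 on the log2 scale to either side. It lay within a 2-fold change in either direction for 28 of the 29 genes, *Stard4* being the exception, and within a 1.5-fold change for 10. Smaller differences could not be told from no difference with 3 mice against 3. These folds are on the scale of FPKM + 1 and understate those of the lowest genes.

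In 4 of the 29 genes (13.8%) the KO and WT libraries did not overlap, against 1577 of all genes tested (11.1%). *Fasn*, *Scap* and *Scd1* were lower in all 3 KO mice, where 5.7% of all genes were lower without overlap. *Msmo1* was higher in all 3, where 5.37% of all genes were higher without overlap. For each of the 4, an exact two-sided permutation test gave p = 0.1, the smallest value that 3 mice against 3 allow. Each of the 4 overlapped under at least 1 other scaling, *Fasn* and *Scap* after correction for transcript length, *Scap* and *Scd1* with a trimmed-mean factor, *Msmo1* with quantile normalization, and *Scap* and *Msmo1* after correction for GC content.

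**Figure D3:**
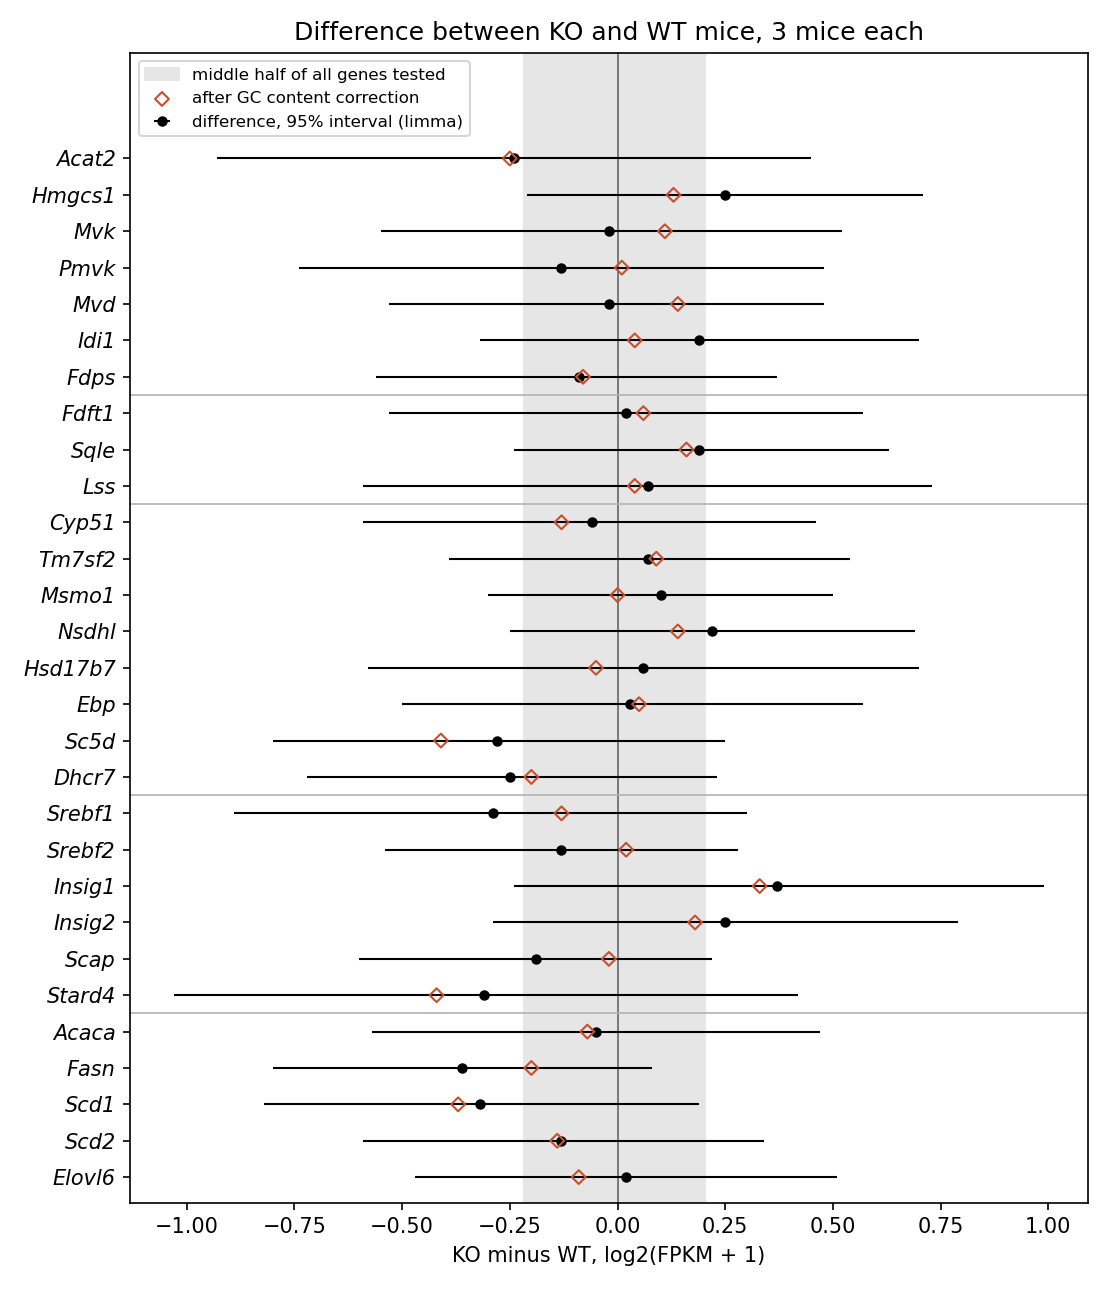
Filled circles give the difference between KO and WT means in log2(FPKM + 1) with its 95% limma interval, open diamonds give it after each library was corrected for GC content, and the grey band spans the middle 50% of all genes tested, −0.217 to 0.204. Every interval crosses 0, and lines separate the 5 branches. The 3 genes from squalene to lanosterol lie above 0, and each other branch has genes on both sides.

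The early mevalonate and isoprenoid branch showed no common direction. Of its 7 enzymes, 5 were lower and 2 higher in KO mice, with a median log2 difference of −0.02 and no gene without overlap. *Hmgcs1*, which condenses acetyl-CoA and acetoacetyl-CoA, was at 40, 47.5 and 54.3 FPKM in WT and 47.4, 59.4 and 62.4 FPKM in KO mice. Its 2 highest values were in KO 2 and KO 3, and KO 1 lay within the WT values (log2 difference 0.25, SE 0.21, limma adjusted p = 0.887). *Idi1*, the isopentenyl diphosphate isomerase, was the other gene with a higher KO mean, at 8.36, 8.49 and 10.7 FPKM in WT and 8.22, 11.7 and 12.1 FPKM in KO mice, where KO 1 was the lowest of all 6 libraries.

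*Acat2*, the thiolase that joins acetyl-CoA units, had the widest WT spread of the 29 genes, a coefficient of variation of 39.9%. It was at 9.2 FPKM in WT 1 and at 21 FPKM in both WT 2 and WT 3, and the KO mice, at 13.3, 15.9 and 11.5 FPKM, lay between them. Its log2 difference of −0.24 was −0.61 without WT 1 (limma unadjusted p = 0.0354, adjusted p = 0.963) and −0.05 without WT 2 or without WT 3. In the GENCODE transcripts 45.9% of the 50-base words of *Acat2* also occur in *Acat3*, a neighbour named here after the overlap was seen, so the assignment of its fragments is uncertain.

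*Mvk* and *Pmvk*, the kinases of mevalonate and phosphomevalonate, varied in the KO mice. *Pmvk* was at 17.6, 23.5 and 19.8 FPKM in WT and at 27.4, 12.8 and 17.5 FPKM in KO mice, so KO 1 was the highest and KO 2 the lowest of the 6 libraries. *Mvk* ranged from 16.6 to 24.5 FPKM in WT and from 15.7 to 26.1 FPKM in KO mice. *Mvd*, the decarboxylase that follows them, had means of 10.1 ± 1.09 and 10 ± 2.04 FPKM (SD, n = 3), and *Fdps* had 34.8 ± 1.87 and 33.1 ± 7.38 FPKM. The fragments of *Idi1* and *Fdps* are also partly uncertain, since 21.3% and 11.7% of their 50-base words occur in other annotated genes.

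All 3 enzymes from squalene to lanosterol had a higher KO mean, with a median log2 difference of 0.07 and overlap in each. *Sqle*, the squalene epoxidase, was at 19.2, 24.1 and 25.6 FPKM in WT and at 25.2, 27.5 and 25.9 FPKM in KO mice. Only WT 3 reached the KO values (log2 difference 0.19, SE 0.19, limma adjusted p = 0.919). *Fdft1*, the squalene synthase, of whose 50-base words 10.9% occur in other annotated genes, differed by 0.02 (SE 0.25) and *Lss*, the lanosterol synthase and the second lowest of the 29 genes, by 0.07 (SE 0.30). For *Lss* the WT mice spanned 2.36 to 4.69 FPKM and the KO mice 3.08 to 4.39 FPKM. Without WT 1, the lowest WT library for all 3 genes, the median of the branch was −0.07.

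From lanosterol to cholesterol 5 of 8 enzymes were higher and 3 lower in KO mice on the log2 scale, with a median difference of 0.05. Among the 5 was *Ebp*, whose mean in FPKM was 0.997 times that of WT mice. *Msmo1*, the methylsterol monooxygenase (chromosome 8, 64718139 to 64733792), was at 27.5, 25.2 and 27.5 FPKM in WT and 28.9, 28.3 and 28.9 FPKM in KO mice. The groups did not overlap and were 0.759 FPKM apart, with the smallest KO spread of the 29 genes, a coefficient of variation of 1.27%. Counting alone gives an estimated 4.31% for this gene in the library with the fewest fragments, so the gap was within counting error. The log2 difference was 0.10 (SE 0.18, limma adjusted p = 0.958), with a 95% interval from 0.814-fold to 1.41-fold.

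*Nsdhl*, a sterol dehydrogenase that works beside *Msmo1* in removing methyl groups, was at 8.35, 7.11 and 6.8 FPKM in WT and 9.01, 7.93 and 9.44 FPKM in KO mice, and WT 1 lay within the KO values. *Dhcr7*, which makes cholesterol in the last step of one arm, was at 16.1, 23.2 and 20.9 FPKM in WT and 15, 16.1 and 18.8 FPKM in KO mice, and *Sc5d*, the desaturase before it, at 11.8, 13.4 and 10.5 FPKM in WT and 11.9, 10.3 and 7.24 FPKM in KO mice. Both had overlapping groups, with log2 differences of −0.25 (SE 0.21) for *Dhcr7* and −0.28 (SE 0.24) for *Sc5d*. Leaving out a library moved that of *Dhcr7* to between −0.39 (without WT 1) and −0.14 (without WT 2) and that of *Sc5d* to between −0.42 (without KO 1) and −0.09 (without KO 3). The other 4 enzymes, the lanosterol demethylase *Cyp51*, the sterol reductases *Tm7sf2* and *Hsd17b7* and the sterol isomerase *Ebp*, differed by −0.06 to 0.07. *Ebp* was spread in WT mice, from 13 to 23.7 FPKM, and close in KO mice, from 16.2 to 18.8 FPKM. Over all 18 enzymes from *Acat2* to *Dhcr7*, 8 were lower and 10 higher in KO mice, with a median log2 difference of 0.03, and their summed level was 277 to 340 FPKM in WT and 308 to 329 FPKM in KO mice.

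Among the genes of sterol sensing and transport, 4 of 6 had a lower KO mean, with a median log2 difference of −0.16. *Scap* (chromosome 9, 110333288 to 110384950), the escort of the SREBP precursors, was at 30.9, 31.4 and 31.1 FPKM in WT and 26.4, 24.9 and 30.5 FPKM in KO mice. The WT values were the tightest of the 29 genes, with a coefficient of variation of 0.708% where counting alone gives an estimated 3.85% in the library with the fewest fragments. KO 3 lay 0.472 FPKM below the lowest WT value, a gap within counting error, and KO 1 and KO 2 lay further below. The log2 difference was −0.19 (SE 0.18, limma adjusted p = 0.916), with a 95% interval from 0.66-fold to 1.16-fold.

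*Srebf2*, the factor that mainly drives sterol genes, was at 30.9, 31.9 and 36.7 FPKM in WT and 31.5, 28.5 and 30.6 FPKM in KO mice (log2 difference −0.13, SE 0.18, and −0.06 without WT 3). *Srebf1*, the factor that mainly drives fatty acid genes, was at 21.1, 26.1 and 26.7 FPKM in WT and 19.3, 13.7 and 29.2 FPKM in KO mice (log2 difference −0.29, SE 0.27). KO 2 had the lowest and KO 3 the highest *Srebf1* of the 6 libraries. Its difference depended on single libraries, at −0.04 without KO 2 (limma unadjusted p = 0.848) and −0.56 without KO 3 (limma unadjusted p = 0.0424, adjusted p = 0.712). The ratio of *Srebf2* to *Srebf1* was 1.22 to 1.47 in WT mice and 1.64, 2.07 and 1.05 in KO 1, 2 and 3, so it went outside the WT values on both sides.

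*Insig1* and *Insig2*, which retain SCAP in the endoplasmic reticulum, both had a higher KO mean. *Insig1*, itself a known SREBP target, was at 12.6, 6.66 and 14.6 FPKM in WT and 15, 14.7 and 13.1 FPKM in KO mice. Its log2 difference of 0.37 (SE 0.28, limma adjusted p = 0.876) was the highest of the 29 genes and rested on WT 2, without which it was 0.06. *Insig2* was at 13.8, 12 and 8.16 FPKM in WT and 14.8, 11.3 and 14.2 FPKM in KO mice, and its log2 difference of 0.25 was 0.05 without WT 3. *Stard4*, a soluble sterol carrier, had the widest KO spread, with 2.73, 7.75 and 4.76 FPKM in KO 1, 2 and 3 against 7.22, 5 and 6.24 FPKM in WT mice. KO 1 was the lowest and KO 2 the highest of the 6, and without KO 1 the log2 difference of −0.31 was 0.00.

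Of the 5 genes of fatty acid synthesis, 4 had a lower KO mean, with a median log2 difference of −0.13. The groups did not overlap in 2 of the 5 (40%), against 11.1% of all genes tested. For 1 of these 2, *Scd1*, the gap was 0.0015 FPKM. *Fasn*, the fatty acid synthase (chromosome 11, 120805846 to 120824547), was at 16.8, 19.7 and 17.7 FPKM in WT and 12.4, 13.7 and 15.7 FPKM in KO mice. The means were 18.1 ± 1.46 and 13.9 ± 1.68 FPKM (SD, n = 3), a ratio of 0.771, and the groups were 1.09 FPKM apart. This was the lowest log2 difference of the 29 genes, −0.36 (SE 0.20, limma unadjusted p = 0.101 and adjusted p = 0.841), with a 95% interval from 0.576-fold to 1.06-fold. It stayed between −0.44 and −0.28 when any library was left out.

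*Scd1* (chromosome 19, 44394455 to 44407879), which puts the double bond into saturated acyl chains, was at 13.6, 11.1 and 10.9 FPKM in WT and 7.27, 10.9 and 10.1 FPKM in KO mice. KO 2 and WT 3 were only 0.0015 FPKM apart, less than counting could resolve, so the lack of overlap in *Scd1*, like those in *Scap* and *Msmo1*, was within counting error (log2 difference −0.32, SE 0.23, limma adjusted p = 0.867). Without KO 1 the difference was −0.16. Its neighbour *Scd2* (chromosome 19, 44293674 to 44306864) was at 135, 132 and 149 FPKM in WT and 108, 123 and 154 FPKM in KO mice, with the lowest and the highest value both in KO mice. *Scd2* exceeded *Scd1* by 9.89, 11.9 and 13.7 times in WT and by 14.8, 11.3 and 15.3 times in KO mice, and the groups overlapped. Of the 50-base words of *Scd1*, 4.66% occur in other annotated genes.

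*Acaca*, the acetyl-CoA carboxylase that supplies malonyl-CoA, had means of 7.11 ± 1.05 FPKM in WT and 6.83 ± 1.15 FPKM in KO mice (SD, n = 3). Its fragments are the least certain of the list, since 52.6% of its 50-base words occur in *Gm5182*, named here after the overlap was seen. *Elovl6*, an elongase of saturated and monounsaturated chains, had means of 16.4 ± 3.48 and 16.5 ± 2.23 FPKM. The median log2 difference of the fatty acid branch was −0.27 without KO 3 and −0.03 without KO 1.

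KO libraries did not move together over the 29 genes. KO 1 was below all 3 WT values in 11 genes (37.9%) and above them in 7, and KO 2 was below in 12 (41.4%) and above in 7. KO 3 was below in 8 (27.6%) and above in 13 (44.8%). Over all genes tested, the shares below the WT values were 28.7%, 32.6% and 28% in KO 1, 2 and 3 and the shares above were 31.1%, 28.7% and 29.2%. KO 1 was the lowest of the 6 libraries in 9 of the 29 genes, and KO 3 the highest in 9. The fatty acid branch was the only branch whose median deviation from the WT mean was below 0 in every KO library, at −0.36, −0.11 and −0.19 on the log2 scale, and WT 1 and WT 2 were also below 0, at −0.10 and −0.07.

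**Figure D4:**
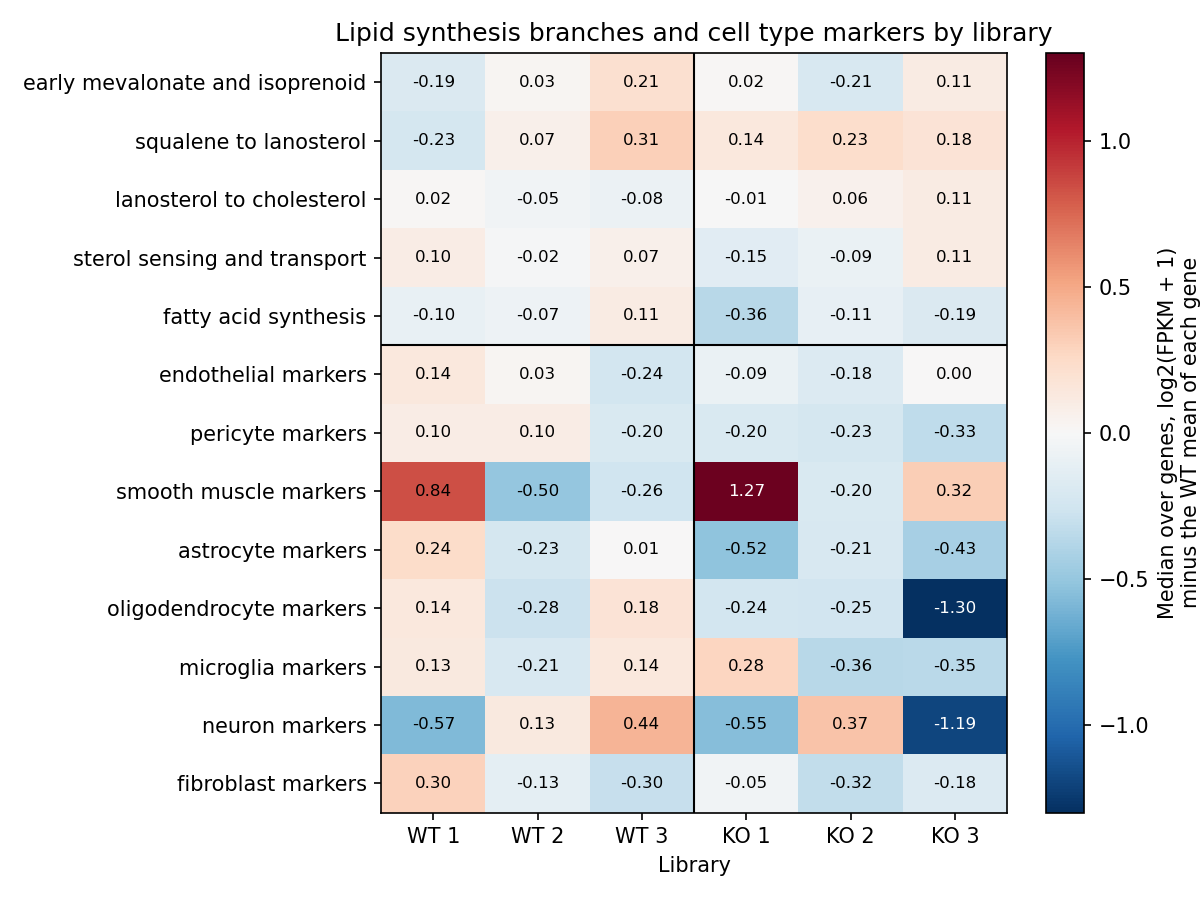
Each cell gives the median over the genes of a row of log2(FPKM + 1) minus the WT mean of each gene, for the 3 WT and the 3 KO libraries, with the lipid branches above and the cell type markers below the line. The branches stay between −0.36 and 0.31, whereas smooth muscle markers reach 1.27 in KO 1 and oligodendrocyte markers −1.30 in KO 3.

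Markers of most cell types had lower KO means, those of the brain cells known for lipid synthesis among them. All 6 astrocyte markers had a lower KO mean, with a summed level of 575 to 671 FPKM in WT and 431 to 477 FPKM in KO mice. *Gfap* and *Gja1*, the filament and gap junction proteins of astrocytes, had unadjusted p-values of 0.0464 and 0.0338 (limma, adjusted p = 0.841 for both). Of the 7 oligodendrocyte markers 6 had a lower KO mean. The sum over the 7 was 363 to 492 FPKM in WT and 404, 363 and 212 FPKM in KO 1, 2 and 3. KO 3 lay well below the WT sums, and KO 2 was level with the lowest of them at this rounding. The myelin genes *Mobp*, *Cnp* and *Mag* had unadjusted p-values of 0.00129, 0.0127 and 0.0324 (limma, adjusted p = 0.841). *Mog*, another myelin gene, had the higher KO mean, with a log2 difference of 0.57 (limma adjusted p = 0.919). Of the 6 endothelial markers 4 had a lower KO mean, with a median log2 difference of −0.11. *Cdh5*, the cadherin of endothelial junctions, differed by −1.03 (SE 0.19, limma unadjusted p = 0.000303, adjusted p = 0.841), and the other 5 by −0.14 to 0.09.

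Lower KO means were also seen in 5 of 5 neuron markers, 3 of 3 fibroblast markers, 4 of 5 pericyte markers and 4 of 5 microglia markers, but in 0 of 4 smooth muscle markers. The summed levels of these markers overlapped between groups except for microglia and fibroblasts. The sums in WT and KO mice were 204 to 291 and 226 to 331 FPKM for pericytes, 225 to 561 and 257 to 754 FPKM for smooth muscle, and 187 to 395 and 131 to 328 FPKM for neurons. They were 94.1 to 106 and 77.1 to 90.3 FPKM for microglia and 750 to 1061 and 447 to 677 FPKM for fibroblasts. Single genes carried some of these sums. The collagen gene *Col1a1* (log2 difference −0.84, limma adjusted p = 0.841) was lower without overlap, and the other fibroblast markers *Dcn* and *Lum* overlapped, at −0.18 and −0.05. Among pericyte markers *Rgs5*, the most abundant, overlapped at 0.24, while *Pdgfrb* and *Anpep* were lower without overlap, at −0.39 and −0.46 (limma adjusted p = 0.841 for both). In bulk RNA fewer cells of a type and less RNA per cell cannot be told apart. The summed level of the 29 lipid genes was 579 to 670 FPKM in WT and 576 to 652 FPKM in KO mice, and the part of these cell types in the values of single genes was not tested.

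The differences went with base composition, and single KO libraries with transcript length. Over all genes the deviation of a library from the gene mean was correlated with GC content at 0.08, 0.31 and 0.15 in the WT and −0.14, −0.25 and −0.03 in the KO libraries (Spearman, 13726 genes). The log2 difference was correlated with GC content at −0.347 over these genes and at −0.404 over the 29 members, which share the same 6 libraries and are not replicates. GC content of the longest transcript ran from 41.9% to 59.1% over the members, with a median of 49.1%, and 50% was the median of all genes. Of the 15 members at or above that 49.1%, 12 had a log2 difference below 0, and of the 14 below it, 4 had. *Fasn*, *Scap*, *Srebf1* and *Srebf2*, at 57.9%, 59.1%, 58.4% and 57.9%, were among the former. The deviations were correlated with transcript length at 0.01 to 0.05 in the WT libraries and at −0.3, 0.29 and −0.14 in KO 1, 2 and 3, in opposite directions in KO 1 and KO 2. Over the 29 members the log2 difference was correlated with length at −0.34. After correction for length, *Sqle*, *Nsdhl* and *Msmo1* were higher and *Scd1* lower in KO mice without overlap, 4 of 29 genes (13.8%) against 12% of all genes.

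After each library was corrected for its trend on GC content, *Fasn* had a log2 difference of −0.20 and *Scd1* one of −0.37 (limma adjusted p = 0.999 for both), and both were still without overlap. *Scap* and *Msmo1* then overlapped between the groups, at −0.02 and 0.00, so 2 of the 4 genes without overlap remained. The median of the sterol sensing branch was then 0.00 and that of the lanosterol to cholesterol branch −0.03. *Sc5d* and *Stard4*, at 42.9% and 43.9% GC, were lower than before the correction, at −0.41 and −0.42. The differences of *Hmgcs1*, *Idi1* and *Srebf1* were smaller than before, at 0.13, 0.04 and −0.13.

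**Figure D5:**
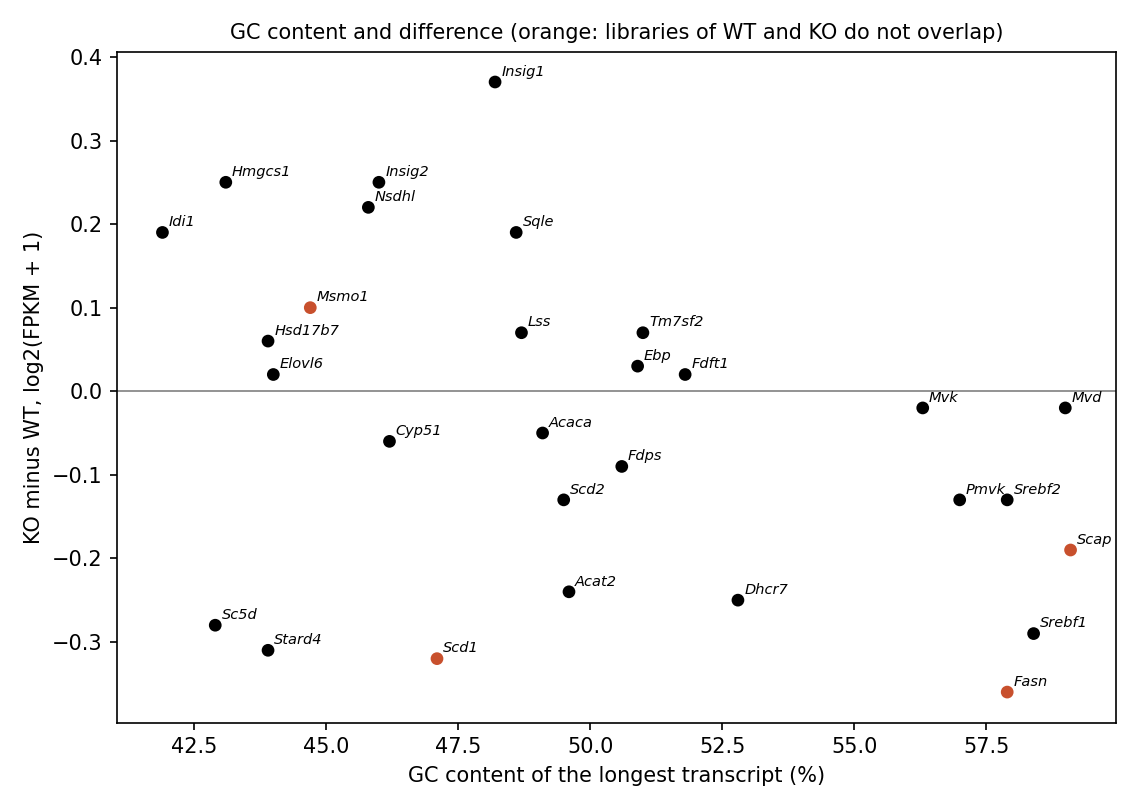
The horizontal axis gives the GC content of the longest annotated transcript in percent and the vertical axis the KO minus WT difference in log2(FPKM + 1), 1 point for each of the 29 genes, with the 4 genes without overlap in orange. At or above the median of 49.1% GC, 12 of 15 points lie below 0, and below it 4 of 14 do.

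Another 34 genes of lipid metabolism were listed by their known roles, and 33 passed the filter. Of these 33, 21 had a lower and 12 a higher KO mean, and none had an adjusted p under 0.05 with limma. The 16 on the sterol side take up, export, esterify or sense sterols or belong to the synthesis pathway itself. Of them 14 were lower (87.5%), against 50.8% of all genes tested, with a median log2 difference of −0.16. Only 1 of the 16 had an unadjusted p under 0.05 with limma, and 1 was without overlap. Values of this list after correction for GC content or transcript length are not given here. Of the 17 tested on the fatty acid side, 7 were lower and 10 higher, with a median of 0.06.

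In this list 1 gene was lower and 1 higher at an unadjusted p under 0.05, where 3.11% and 2.77% of all genes tested were. Without overlap, 1 gene was lower and 1 higher, 6.06% of the 33, against 11.1% of all genes tested. *Mbtps1*, the site-1 protease that cuts the SREBP precursors after SCAP has carried them to the Golgi, was at 48.9, 40.8 and 43.8 FPKM in WT and 29.9, 26.3 and 39.2 FPKM in KO mice. Every KO value was below every WT value (log2 difference −0.48, SE 0.21, limma unadjusted p = 0.0426 and adjusted p = 0.841). *Elovl7*, an elongase of long acyl chains, was at 15.4, 12.5 and 12.7 FPKM in WT and 28.1, 14.5 and 37.1 FPKM in KO mice, with KO 2 inside the WT values (log2 difference 0.83, SE 0.31, limma unadjusted p = 0.0221 and adjusted p = 0.841). *Hsd17b12*, a reductase of the elongation cycle, was at 29.6, 26.5 and 29.6 FPKM in WT and 42.8, 33.5 and 34.7 FPKM in KO mice without overlap (log2 difference 0.36, SE 0.19, limma unadjusted p = 0.0907).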

How the data were processed

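Brain microvessel RNA of 3 WT and 3 TEKCRIF1 KO mice (TRIzol) was made into stranded NEBNext Ultra II Directional libraries. The authors removed adapters and low-quality reads, mapped reads with TopHat (mm10, per the submitters' processing notes) and deposited FPKM values for 23183 gene symbols per library. The program that made the FPKM values, and any scaling between libraries, are not given in the sources used here. Their DESeq2 test needs counts and was not run.

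log2(FPKM + 1) was compared between KO and WT with limma 3.58.1 in R 4.3.3 (trended variance, no block) over the 14247 genes averaging 1 FPKM or more, with Benjamini-Hochberg adjustment. Single genes also had an exact two-sided permutation test. Intervals are limma's 95% intervals. Members, branches, other lists and markers were chosen with earlier results of these data known. All 29 members were named, and beyond them *Gadd45gip1*, other lipid genes with an unadjusted p under 0.05 or no overlap, and markers.

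Depth was estimated from the spacing of FPKM values under 0.3, and 14 of 15 library pairs lay within 0.003 of it on the log2 scale, the remaining pair being off by over 0.1. It was put on an absolute scale with 4518 genes of 1 GENCODE M21 transcript, and it covers counting error only. At these depths 3 fragments on 1 kb correspond to 0.256 to 0.469 FPKM. Length, GC content (GRCm38, longest transcript), coordinates and shared 50-base words came from GENCODE M21, matched by symbol for 22148 of 23183. Trends were removed per library with loess (span 0.3). The fit was tested on simulated data. The study describes the replicates as separate mice. Replicate numbers came from the sample titles. The file headers carry other numbers, with 4, 6 and 8 for WT 1, 2 and 3 and 1, 2 and 6 for KO 1, 2 and 3, and whether the shared 6 of WT 2 and KO 3 has a meaning is not given in the sources used here.

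Alternatives were no filter, a filter at 5 FPKM, a pseudocount of 0.1, a trimmed-mean factor, quantile normalization, a replicate block, no trended variance, GC and length correction, and leaving out each library.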

Additional observations from a re-analysis of the deposited data

How the results depend on the processing

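None of the 29 genes had an adjusted p under 0.05 in the 9 other settings or without any single library, and the lowest adjusted p was 0.423. Of 433 values of single genes, 33 changed sign, 27 of them on leaving out a library, and 15 genes kept their direction throughout. *Lss* and *Hsd17b7* dropped out at a filter of 5 FPKM. The 4 genes without overlap were 2 (6.9%, all genes 11.1%) with a trimmed-mean factor and 2 (6.9%, all genes 9.63%) after GC correction, which also gave medians of −0.03 for lanosterol to cholesterol and 0.00 for sterol sensing and transport, and signs that changed for *Mvk* (0.11), *Pmvk* (0.01), *Mvd* (0.14), *Hsd17b7* (−0.05), *Srebf2* (0.02) and *Elovl6* (−0.09). The cause was not tested.

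Leaving out each library gave 450 (without WT 2) to 1871 (without KO 2) genes of all tested at an unadjusted p under 0.05, with 510 without KO 1, and 0 to 4 at an adjusted p under 0.05 (4 without KO 2 or KO 3, 1 without WT 3). Of the 29 genes, 0 to 1 then had an unadjusted p under 0.05 and 4 to 11 did not overlap, where fewer libraries overlap less often by construction. They were 11 (37.9%, all genes 17.8%) without KO 1, 10 (34.5%, all genes 20.5%) without WT 1, 8 (27.6%) without KO 2 (all genes 30.7%) or KO 3 (all genes 23.6%), 7 (24.1%, all genes 20.8%) without WT 3 and 4 (13.8%, all genes 16.9%) without WT 2. The median over all 29 was −0.12 (without WT 1) to 0.02, that from squalene to lanosterol −0.07 to 0.22, that of fatty acid synthesis −0.27 (without KO 3) to −0.03 (without KO 1), that of the early mevalonate branch −0.12 (without KO 1) to 0.12 (without KO 2), that of lanosterol to cholesterol −0.01 (without KO 3) to 0.10 (without KO 1), and that of sterol sensing −0.20 (without KO 3) to −0.07 (without KO 2). Log2 differences then ran from −0.19 to 0.15 for *Mvk*, −0.41 to 0.11 for *Pmvk*, −0.12 to 0.14 for *Mvd*, −0.26 to 0.02 for *Fdps*, −0.15 to 0.19 for *Fdft1*, −0.16 to 0.22 for *Lss*, −0.17 to 0.12 for *Cyp51*, −0.03 to 0.18 for *Tm7sf2*, −0.15 to 0.26 for *Ebp*, −0.61 to 0.00 for *Stard4*, −0.17 to 0.04 for *Acaca* and −0.10 to 0.18 for *Elovl6*. Without a change of sign they ran from −0.61 to −0.05 for *Acat2*, −0.56 to −0.04 for *Srebf1*, −0.42 to −0.16 for *Scd1*, −0.27 to −0.01 for *Scd2*, 0.14 to 0.37 for *Hmgcs1*, 0.10 to 0.35 for *Idi1*, 0.08 to 0.27 for *Sqle*, −0.18 to −0.06 for *Srebf2*, 0.06 to 0.12 for *Msmo1*, 0.06 to 0.58 for *Insig1* and 0.05 to 0.40 for *Insig2*.

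Same-numbered WT and KO libraries had correlated deviations of 0.037, 0.027 and 0.002, so the numbers, taken from the sample titles, were not treated as pairs. With the replicate number as a block, 871 of all genes and 0 of the 29 had an unadjusted p under 0.05, 0 passed after adjustment, and the block changed no call among the 29.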
